A study of Mus musculus with 6 samples.

Results

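The natriuretic peptide system was followed through 8 genes in primary mouse cardiomyocytes with and without Cre-induced RIT1 M90I. The genes encode the ligands (Nppa, Nppb and Nppc), the receptors (Npr1, Npr2 and Npr3) and the proteases that cut the ligand precursors (Corin and Furin). They were chosen by symbol, and all 8 were found among the 54532 genes of the deposited table. RNA-seq had been performed on cells from the hearts of neonates, 1 to 3 days old, carrying a conditional M90I allele at the Rit1 locus. RIT1 is a RAS-related GTPase, and M90I is a variant found in Noonan syndrome, a developmental disorder in which the heart muscle often thickens. All cultures were infected on day 3 after isolation, and 3 received an adenovirus encoding GFP alone (AdGFP, labelled Rit1 +/+) while 3 received GFP together with Cre recombinase (AdCre, labelled Rit1 M90I/+). The variant and the recombinase arrived together in every AdCre culture, and no culture of ordinary mice given AdCre was analysed here, so the effects of the variant and of Cre cannot be told apart. Cells were plated at a density of about one heart per well after non-adherent cells had been collected, without a sort, and the sources do not say how many animals entered a sample. RNA was sequenced from cultures at day 6 of infection.

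Atrial natriuretic peptide (ANP, from Nppa) and B-type natriuretic peptide (BNP, from Nppb) are hormones secreted by heart muscle cells that lower blood pressure and blood volume, and their transcripts are widely used as markers of the fetal and of the stressed heart. C-type natriuretic peptide (CNP, from Nppc) is made mainly outside muscle, for example by endothelial cells. Corin, a membrane serine protease of cardiomyocytes, cuts pro-ANP, and furin, a convertase of the secretory pathway, cuts pro-BNP and pro-CNP. Npr1 encodes the receptor for ANP and BNP and Npr2 the receptor for CNP, and both receptors make cyclic GMP inside the cell. Npr3 encodes the clearance receptor, which binds all of these ligands and removes them by internalization.

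The ligand genes are related in sequence, so their GENCODE M21 transcripts were searched for stretches that a counting step could confuse. None of the 50-base words of Nppa, Nppb and Nppc occurred in a transcript of another gene. The same held for Npr1, Npr2, Npr3 and Corin, and 1.0% of the words of Furin occurred elsewhere.

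On GRCm38, Nppa and Nppb are neighbours on chromosome 4, at 148000722 to 148002079 and 147985788 to 147987205. Nppc lies on chromosome 1 (86666291 to 86670571), Npr1 on chromosome 3 (90450591 to 90465866), Npr2 on chromosome 4 (43631935 to 43651244) and Npr3 on chromosome 15 (11839896 to 11907287). Corin lies on chromosome 5 (72300025 to 72504473) and Furin on chromosome 7 (80388585 to 80405436). Exons of the antisense gene Gm13054 cover 61.5% of the exon bases of Nppa. Gm13054 itself was listed with 5 to 19 reads per sample, against 36385 to 90279 for Nppa, and the use of strand in counting is not stated. Antisense exons cover 11.7% of Npr1, 5.7% of Npr2 and at most 3.4% of each other member.

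Levels are given in FPKM, a read density per exon length and depth that allows different genes to be compared. Reads worked back from them came to between 25.3 and 32.4 M (megareads) per sample, and for an exon length of 2 kb, 1 FPKM corresponded to 49.3 to 64.1 reads. The label of cardiac myocytes was checked against markers. In AdGFP cultures the defining genes Tnnt2 (cardiac troponin T), Actn2 (alpha-actinin) and Ttn (titin) averaged 455 ± 109, 269 ± 33.9 and 5.53 ± 0.678 FPKM (mean ± SD over 3 samples, as for all values written with ±). The AdCre averages were 276 ± 57.8, 133 ± 42.1 and 3.55 ± 2.23 FPKM. The summed level of 11 cardiomyocyte markers lay between 4685 and 7593 FPKM in AdGFP, above the range of 2455 to 4118 FPKM in AdCre. Other cells were present: 8 fibroblast markers summed to 2589 to 4644 FPKM in AdGFP and 2272 to 3324 FPKM in AdCre, with the defining Pdgfra at 18.7 ± 9.76 and 15.6 ± 6.1 FPKM and Tcf21 at 15.1 ± 5.36 and 12.1 ± 6.53 FPKM. In bulk RNA, fewer cells of a type and less RNA per cell cannot be told apart.

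In AdGFP the order from highest to lowest was Nppa, Nppb, Furin, Npr2, Corin, Npr3, Npr1 and Nppc, and the ranges of neighbours in this order did not overlap. The order was the same in AdCre, where the ranges of Npr1 and Nppc overlapped. Nppa held between the 3rd and the 8th highest FPKM value of all genes in every sample and took between 0.135% and 0.34% of the recovered reads. Among the receptors, Npr2 exceeded Npr1 in all 6 samples, on average 32.5-fold in AdGFP and 21.9-fold in AdCre on the FPKM scale. The log2 ratio of Npr2 to Npr1 was 5.02 ± 0.181 in AdGFP and 4.45 ± 0.395 in AdCre (exact two-sided permutation p = 0.2), and the ranges overlapped. Between samples with the same replicate number, AdCre less AdGFP was -0.85, -0.16 and -0.69.

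**Figure D1:**
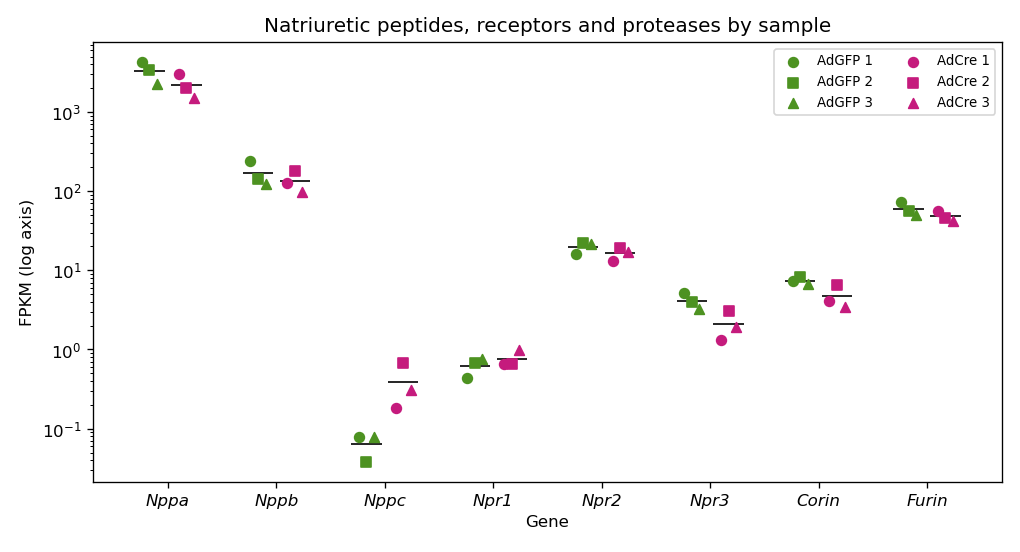
FPKM of the 8 natriuretic genes on a log axis, with 1 point per sample (green AdGFP, magenta AdCre, marker shape by replicate number) and a black bar at the mean of each group. Levels ran from 1518 to 4223 FPKM for Nppa down to below 1 FPKM for Npr1 and Nppc, and the groups separated for Nppc, Npr3 and Corin.

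The comparison of AdCre with AdGFP asks which of these transcripts differ when Cre is delivered and RIT1 M90I is expressed, the 2 together. Values were fitted with limma on log2(FPKM + 0.1), over the 13794 genes whose mean reached 0.5 FPKM. Of the 8 members, 7 were tested, and Nppc lay below this level. In the fit of group alone, 0 of the 7 had an adjusted p under 0.05, a threshold passed by 1 gene of all those tested, or 0.00725%. At an unadjusted p under 0.05 there were 2 members, Npr3 and Corin, both lower in AdCre, against 10.2% of all genes in either direction and 5.45% in that direction. Samples with the same number deviated together across the transcriptome, so a second fit compared AdCre with AdGFP within the 3 same-numbered pairs, with the replicate number as a block. There, 2 of the 7 members passed, Nppa and Corin, both lower in AdCre, while 6.15% of all genes were called in that fit and 3.51% were called lower. All AdCre samples lay below all AdGFP samples for Npr3 and Corin, and for 8.02% of genes tested, and 0 of the 7 separated in the other direction, against 7.36% of genes (15.4% in either direction). In both fits, 6 of the 7 members had a lower mean in AdCre and Npr1 had a higher one, with a median log2 fold change of -0.31, beside -0.0022 over all genes tested.

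Nppa was the most abundant member. Its level was 4223, 3410 and 2264 FPKM in AdGFP replicates 1 to 3, and 3044, 1990 and 1518 FPKM in AdCre replicates 1 to 3. The groups overlapped, as AdCre replicate 1 lay above AdGFP replicate 3, but within each same-numbered pair the AdCre sample was the lower. The pair differences were -0.47, -0.78 and -0.58 on the log2 scale. As a log2 fold change this was -0.61 (SE 0.36, limma adjusted p = 0.641), and an exact permutation test over the 6 samples gave a two-sided p of 0.2. With the replicate block the same change had a standard error of 0.11, and Nppa passed (limma adjusted p = 0.0421). That call stood close to the threshold and depended on the scaling: it was lost in the blocked fit after rescaling to TPM (0.0543), per total of recovered reads (0.0517) and after quantile normalization, which also brought the change to -0.25 (0.403). Without AdCre replicate 3 the change was -0.38. The blocked call was also lost without a filter on low values (0.391), without an intensity trend (0.0863), without pair 2 (0.249) and without pair 3 (0.136).

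Nppb did not follow Nppa in every pair. Its level was 239, 141 and 123 FPKM in AdGFP and 126, 179 and 96.3 FPKM in AdCre. AdCre replicate 2 lay above 2 of the 3 AdGFP samples, and the groups overlapped. The pair differences were -0.93, 0.35 and -0.35, so that the direction in pair 2 was opposite to that of the other pairs. Its log2 fold change of -0.31 (SE 0.32) passed in neither fit (limma adjusted p = 0.825, and 0.452 with the block). The 95% interval of the blocked fit ran from -0.87 to 0.25, and single samples moved the change. Leaving out AdGFP replicate 1 or AdCre replicate 3 brought it to -0.022 or -0.097, and leaving out AdGFP replicate 3 or AdCre replicate 2 to -0.50 or -0.54. The within-sample ratio of Nppa to Nppb, which does not depend on library scaling, was 4.32 ± 0.249 in AdGFP and 4.02 ± 0.561 in AdCre on the log2 scale (exact two-sided permutation p = 0.4). Its pair differences were 0.45, -1.13 and -0.22. The group difference of -0.30 became -0.028 when AdCre replicate 2 was left out, -0.59 when AdCre replicate 1 was, and -0.16 when AdGFP replicate 2 was.

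Nppc was near the limit of detection in AdGFP. It had 2, 1 and 2 reads in AdGFP replicates 1 to 3 and 6, 18 and 9 reads in AdCre replicates 1 to 3, or 0.0777, 0.0378 and 0.0779 FPKM against 0.18, 0.669 and 0.312 FPKM. All AdCre values exceeded all AdGFP values. An exact permutation test gave a two-sided p of 0.1, which is the lowest that 3 samples against 3 allow. Per recovered read the ratio of AdCre to AdGFP was 6.01, with a 95% exact Poisson interval of 2.33 to 19.7 that covers counting error only. AdCre replicate 2 held 18 of the 33 AdCre reads, and without it the ratio was 3.93 (interval 1.36 to 13.8). In the fit without a filter on low values Nppc did not pass (limma adjusted p = 0.498, and 0.263 with the block). The summed level of 9 endothelial markers, a cell type that makes CNP, was 94.1 to 146 FPKM in AdGFP and 138 to 205 FPKM in AdCre. All 9 had a higher mean in AdCre and 4 passed with the block, against 2.64% of all genes called higher, among them the defining Cdh5 (limma adjusted p = 0.0365), while Pecam1 did not (0.11). Their part in the level of Nppc was not tested.

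Npr1, the receptor for ANP and BNP, was expressed at a low level throughout. Its level was 0.44, 0.668 and 0.755 FPKM in AdGFP and 0.646, 0.648 and 0.981 FPKM in AdCre, on 52 to 130 reads per sample. The groups overlapped, and the pair differences of 0.47, -0.038 and 0.34 did not share a direction. On the log2 scale the change was 0.26 (SE 0.33, limma adjusted p = 0.87, and 0.595 with the block). The change was 0.061 without AdGFP replicate 1, 0.39 without AdGFP replicate 3 and 0.078 without AdCre replicate 3. Npr1 was the only member tested whose mean was higher in AdCre.

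Npr2, the receptor for CNP, had levels of 15.99, 22.2 and 21.4 FPKM in the AdGFP samples and of 13.1, 19.2 and 17.2 FPKM in AdCre. The groups overlapped, with AdCre replicate 2 above AdGFP replicate 1, while each pair had the lower value in AdCre (differences of -0.29, -0.20 and -0.31). A log2 fold change of -0.27 (SE 0.19, or 0.075 with the block) passed in neither fit (limma adjusted p = 0.718, and 0.0959 with the block). It was -0.42 without AdGFP replicate 1 and -0.11 without AdCre replicate 1.

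Npr3, the clearance receptor, was lower in all AdCre samples than in any AdGFP sample. Its values were 5.18, 4.0 and 3.24 FPKM in the AdGFP samples and 1.31, 3.04 and 1.93 FPKM in AdCre, where the highest AdCre sample lay just below the lowest AdGFP sample. On the log2 scale the change was -1.01 (SE 0.32), with an exact permutation p of 0.1 (two-sided, the lowest possible). The pair differences were uneven, at -1.91, -0.39 and -0.72, and without pair 1 the blocked change was -0.55. Npr3 passed in neither fit (limma adjusted p = 0.359, and 0.105 with the block), and of the 15 settings of the blocked fit it passed under voom on the recovered reads alone (0.0246). Npr3 is also made by endocardial cells. Of 3 endocardial markers, 2 had a higher and 1 a lower mean in AdCre, and the defining gene Nfatc1 averaged 2.88 ± 0.193 in AdGFP against 4.08 ± 0.505 FPKM in AdCre (limma adjusted p = 0.344, and 0.0552 with the block). Plvap, also in this list, was higher in AdCre without overlap and passed with the block (log2 fold change 0.61, limma adjusted p = 0.0271). Of all genes, 7.36% separated and 2.64% were called in that direction. The marker with a lower mean was Cdh11 (log2 fold change -0.063, limma adjusted p = 0.986, and 0.812 with the block). Their part in the level of Npr3 was not tested.

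Corin, the protease that activates pro-ANP, was lower in AdCre in every comparison of samples. Its level was 7.35, 8.2 and 6.65 FPKM in AdGFP and 4.09, 6.48 and 3.46 FPKM in AdCre, and the groups did not overlap. The fitted log2 change was -0.70 (SE 0.24, limma adjusted p = 0.389), and an exact permutation test gave a two-sided p of 0.1. The pair differences were -0.83, -0.34 and -0.92. With the block Corin passed (limma adjusted p = 0.047). This call too was lost in the blocked fit after rescaling to TPM (0.0573) or quantile normalization (0.0534), without a filter (0.139), without a trend (0.11), and without pair 1, 2 or 3 (0.083, 0.0605 and 0.183).

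Furin was measured at 73.7, 56.0 and 49.8 FPKM in the AdGFP samples and at 55.4, 46.1 and 42.4 FPKM in the AdCre samples. The groups overlapped, since AdCre replicate 1 lay above AdGFP replicate 3, and each pair had the lower value in AdCre (differences of -0.41, -0.28 and -0.23). The log2 change of -0.31 (SE 0.18) did not pass (limma adjusted p = 0.644, and 0.0716 with the block), and it was -0.15 without AdGFP replicate 1. A list of 3 further convertases of the same family held Pcsk5, Pcsk6 and Pcsk7, with log2 fold changes of -0.63, -0.011 and -0.17. In limma 0 of them passed in either fit, against 6.15% of all genes with the block, and 0 had an unadjusted p under 0.05 without the block (limma adjusted p from 0.516 to 0.994, and from 0.168 to 0.981 with the block). Pcsk5 did not overlap between groups, since its lowest AdGFP value was 2.67 FPKM and its highest AdCre value 2.56 FPKM, as for 8.02% of all genes in this direction.

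**Figure D2:**
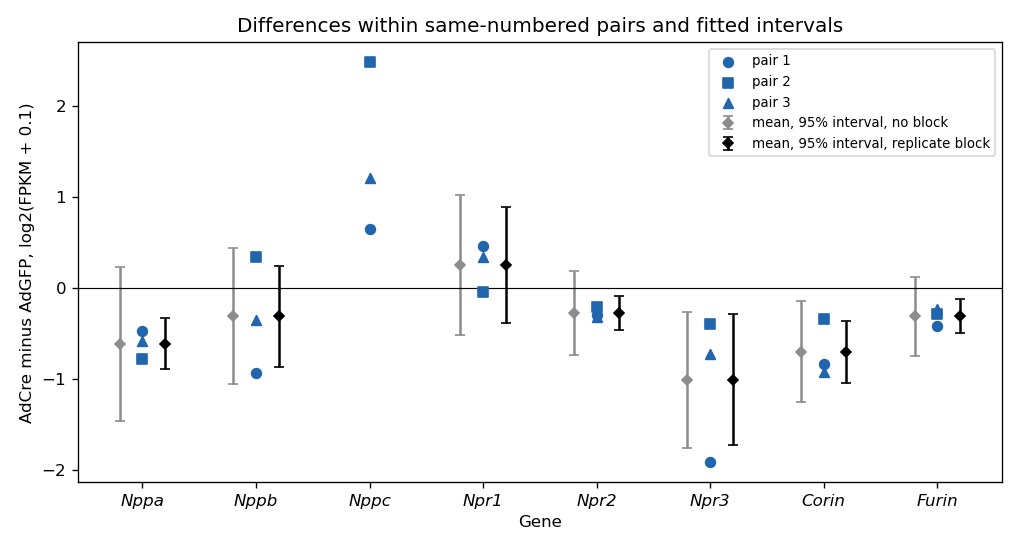
Differences between AdCre and AdGFP on the log2(FPKM + 0.1) scale for each member, as blue points for the 3 same-numbered pairs and as diamonds with 95% intervals for the fit without (grey) and with (black) the replicate block. All pair points lie below 0 for Nppa, Npr2, Npr3, Corin and Furin, those of Nppb and Npr1 lie on both sides, and Nppc, which was not tested, has points and no interval.

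**Figure D3:**
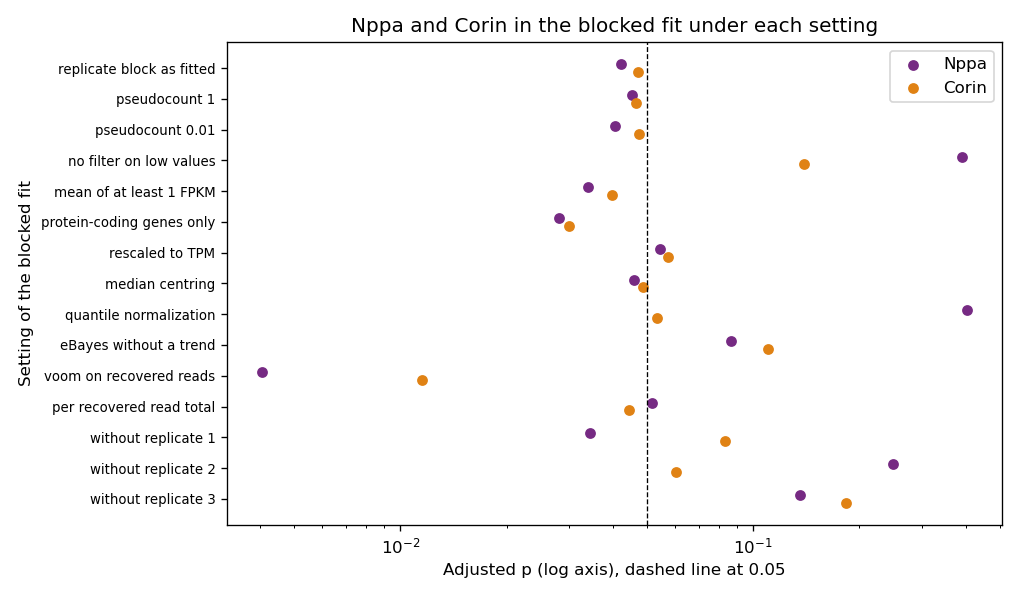
Adjusted p of Nppa (purple) and Corin (orange) in the blocked fit under 15 settings, on a log axis with a dashed line at 0.05. Each gene lies left of the line in 8 settings, with the lowest value under voom (0.00406 for Nppa and 0.0115 for Corin).

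Across the 7 tested members, 5 were lower in AdCre in all 3 pairs, namely Nppa, Npr2, Npr3, Corin and Furin, and 0 were higher in all 3. Of all genes tested, 24.5% were lower and 23.9% higher in all 3 pairs, or 48.4% in the same direction. The pattern of the members across samples was not uniform. Nppa, Nppb, Npr3 and Furin had their highest value in AdGFP replicate 1, whereas Corin and Npr2 had theirs in AdGFP replicate 2 and Npr1 and Nppc theirs in AdCre.

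Because cardiomyocyte markers as a whole were lower in AdCre, the members were also set against them within each sample. The mean log2 FPKM of the 11 markers was 7.29 ± 0.195 in AdGFP and 6.39 ± 0.417 in AdCre, a difference of -0.90, and 8 of the 11 passed as lower with the block, against 3.51% of all genes. Without the block limma called 0, and 9 had an unadjusted p under 0.05, against 5.45% of all genes in that direction. Tnnt2 and Actn2 passed with the block (blocked limma adjusted p = 0.0168 and 0.0181) and Ttn did not (0.118). Relative to these markers, Nppa was at 4.36 ± 0.349 in AdGFP and 4.65 ± 0.636 in AdCre on the log2 scale (exact two-sided permutation p = 0.6), and the pair differences were 0.60, -0.16 and 0.43. Nppa was thus lower in FPKM but not lower per cardiomyocyte marker on average, and without AdCre replicate 1 the relative difference of 0.29 became -0.057. Nppb was at 0.040 ± 0.493 and 0.63 ± 0.115 (exact two-sided permutation p = 0.2), with a relative difference above 0 in all 3 pairs (0.15, 0.96 and 0.66), although the ranges overlapped.

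Corin kept the most even relation to the markers. Its relative level was -4.43, -4.44 and -4.35 in the AdGFP samples and -4.20, -4.16 and -4.28 in the AdCre samples, while its FPKM value varied from 3.46 to 8.2. The groups did not overlap and the difference was 0.19 (exact two-sided permutation p = 0.1, the smallest possible). Npr2 was at -2.99 ± 0.321 in AdGFP and -2.36 ± 0.342 in AdCre relative to the markers, without overlap, and Npr1 at -8.01 ± 0.501 and -6.81 ± 0.694, where the highest AdGFP and the lowest AdCre sample were both at -7.49 (exact two-sided permutation p = 0.1 for each). Furin was at -1.40 ± 0.284 and -0.81 ± 0.466 (p = 0.2) and Npr3 at -5.26 ± 0.291 and -5.41 ± 0.382 (p = 0.7), by the same exact permutation test. The pair differences of Furin relative to the markers were 0.66, 0.33 and 0.78. Those of Npr3 were -0.91, 0.21 and 0.26, so that their direction was not shared. The marker mean itself was lower in AdCre, with a difference of -0.90, against a median of -0.0022 over all genes tested. A gene with unchanged FPKM therefore rises on this scale. The share of all genes that rise or separate on it was not computed. These ratios say how a member moved beside the chosen markers and not which of them changed per cell.

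**Figure D4:**
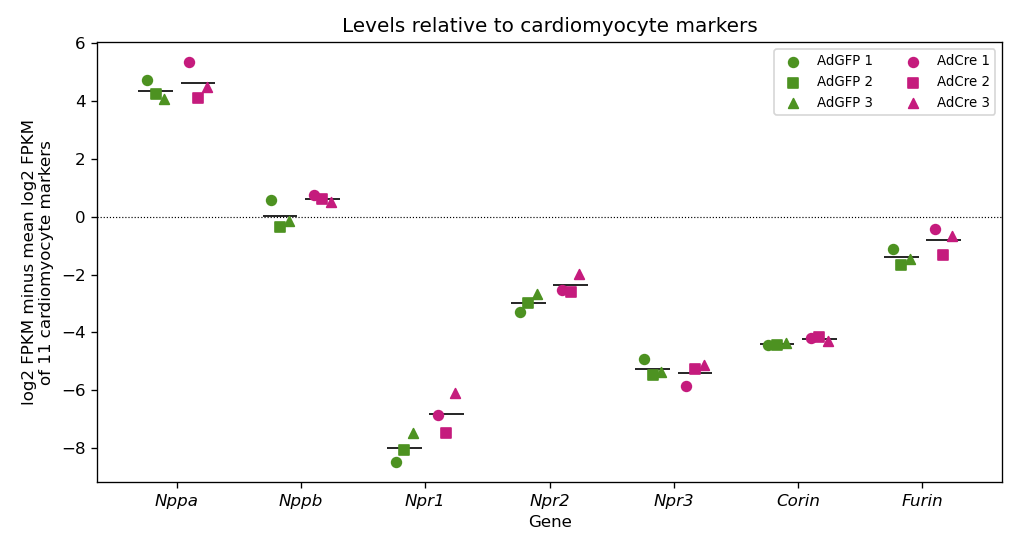
Log2 FPKM of 7 members less the mean log2 FPKM of 11 cardiomyocyte markers in the same sample, with 1 point per sample (green AdGFP, magenta AdCre) and a bar at the group mean; 0 marks the mean marker level. The 6 points of Corin lie between -4.44 and -4.16, whereas those of Nppa spread from 4.06 to 5.34.

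Markers that separate chambers were set beside Nppa, which is more abundant in atrial than in ventricular muscle after birth. The summed level of 7 atrial markers was 375 to 871 FPKM in AdGFP and 380 to 637 FPKM in AdCre, and that of 4 ventricular markers was 404 to 1065 and 233 to 634 FPKM. The defining atrial gene Myl7 was at 550 ± 237 and 454 ± 123 FPKM. Bmp10, also defining but below the level for testing, was at 0.128 ± 0.0761 and 0.358 ± 0.106 FPKM, on 9 to 59 reads per sample. All its AdCre values exceeded all its AdGFP values (exact two-sided permutation p = 0.1, the lowest possible). Of the 5 atrial markers tested, 4 had a lower mean in AdCre, against 50.4% of all genes. Nr2f2 had a higher mean (log2 fold change 0.18, limma adjusted p = 0.863, and 0.304 with the block). It was higher in all 3 pairs, against 23.9% of all genes. With the block 3.51% of all genes were called lower, and Sln and Myl4 passed as lower (log2 fold changes of -1.20 and -0.46, limma adjusted p = 0.0119 and 0.029). The defining ventricular genes Myl2 and Irx4 had log2 fold changes of -1.12 and -0.64 and passed with the block alone (limma adjusted p = 0.00969 and 0.0312). AdGFP replicate 2 had the second highest Nppa level and the lowest atrial sum, 375 FPKM, of which Myl7 alone made up 318 FPKM. The part of atrial and ventricular cells in the level of Nppa was not tested.

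Of the other marker lists, mural markers summed to 122 to 131 FPKM in AdGFP and 117 to 141 in AdCre (Rgs5 at 13.0 ± 2.99 and 10.3 ± 4.58 FPKM, Pdgfrb at 62.7 ± 14.2 and 72.2 ± 15.0 FPKM). Epicardial markers summed to 110 to 215 and 103 to 130 FPKM (Wt1 at 4.14 ± 2.62 and 3.19 ± 2.09 FPKM, Upk3b at 17.7 ± 17.9 and 10.6 ± 11.05 FPKM). Macrophage markers summed to 45.2 to 249 and 81.1 to 309 FPKM (Csf1r at 3.4 ± 1.24 and 4.74 ± 0.499 FPKM, Adgre1 at 2.72 ± 1.58 and 2.88 ± 1.51 FPKM). Endocardial markers summed to 33.4 to 63.8 and 48.3 to 72.7 FPKM, and red blood cell markers to at most 2.18 FPKM in any sample, with Hba-a1 at 0.166 ± 0.105 and 0.084 ± 0.0341 FPKM. No marker of any list was at 0 in all samples.

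Downstream of the receptors, cyclic GMP activates protein kinases (Prkg1 and Prkg2) and is broken down by phosphodiesterases. A list of 22 further genes of this pathway covered peptide degradation, nitric oxide-stimulated cyclases, kinases, phosphodiesterases, kinase substrates and export pumps. It also held a ligand of the clearance receptor and Pcsk6, which is counted among the convertases above as well. Of the 22 genes, 18 were tested. Without the block limma called 0, with 3 at an unadjusted p under 0.05 against 10.2% of all genes, and voom on the recovered reads called no gene of the table. With the block 1 passed as higher and 1 as lower, against 2.64% and 3.51% of all genes. The median log2 fold change of the 18 genes was -0.031, with 8 higher and 10 lower, beside -0.0022 over all genes. Rescaling to TPM moved the list and all genes alike, to 0.058 and 0.087. The list median was 0.077 without AdGFP replicate 3 and 0.053 without AdCre replicate 1, so its sign rested on single samples.

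The gene called as higher was Trpc6, a calcium-permeable channel that is inhibited by cyclic GMP-dependent kinase. It rose from 1.72, 1.57 and 1.24 FPKM in AdGFP to 2.96, 2.87 and 2.6 FPKM in AdCre without overlap. Its log2 change was 0.86 (SE 0.18, limma adjusted p = 0.22, and 0.0289 with the block), and the pair differences were 0.75, 0.83 and 1.01. The gene called as lower was Gucy1a1, a subunit of the cyclase that responds to nitric oxide. It went from 17.4, 29.4 and 62.9 FPKM in AdGFP to 11.5, 19.3 and 30.5 FPKM in AdCre, with groups that overlapped and pair differences of -0.58, -0.60 and -1.04 (log2 fold change -0.74, limma adjusted p = 0.706, and 0.0283 with the block). In both groups its samples had the same order as the sums of fibroblast, endothelial, endocardial and macrophage markers. Of the 8 fibroblast markers, 7 were lower in AdCre in all 3 pairs, against 24.5% of all genes. Dcn, Lum and Col3a1 passed as lower with the block, against 3.51% of all genes (limma adjusted p = 0.023, 0.0347 and 0.0484). Without the block they did not pass (limma adjusted p = 0.755, 0.843 and 0.762). There, 0 of the 8 had an unadjusted p under 0.05, against 10.2% of all genes. The groups overlapped for all 8, and Postn had a higher mean in AdCre (log2 fold change 0.10). The part of any of these cell types in the level of Gucy1a1 was not tested. The calls of Trpc6 and Gucy1a1 were lost in the blocked fit without a filter (limma adjusted p = 0.0999 and 0.0928), without a trend (0.0616 and 0.0906), without pair 2 (0.113 and 0.0749) and without pair 3 (0.13 and 0.0993).

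Transcription factors known to act at the Nppa and Nppb promoters were counted from a list of 14, all tested. With the block 2 passed, both lower, against 3.51% of all genes: Nkx2-5, a homeobox factor of heart development, and Myocd (myocardin), a coactivator of serum response factor. Nkx2-5 went from 80.7, 77.8 and 61.3 FPKM in AdGFP to 51.9, 51.7 and 33.9 FPKM in AdCre without overlap (log2 fold change -0.69, standard error 0.21, limma adjusted p = 0.34, and 0.0188 with the block). Myocd went from 21.9, 23.4 and 19.2 FPKM to 16.6, 17.1 and 11 FPKM, also without overlap (-0.55, standard error 0.19, limma adjusted p = 0.417, and 0.043 with the block). Of the 14, 5 separated as lower and 2 as higher, against 8.02% and 7.36% of all genes. Both changes were smaller than the difference of -0.90 in the mean log2 FPKM of the 11 cardiomyocyte markers. The part of cardiomyocyte RNA in the levels of these factors was not tested. Both calls were lost in the blocked fit without a filter (limma adjusted p = 0.077 for Nkx2-5 and 0.121 for Myocd), without a trend (0.077 and 0.113), without pair 2 (0.0593 and 0.121) and without pair 3 (0.0882 and 0.144), and that of Myocd also under 3 of the scalings. The median over the 14 genes was -0.29, with 6 higher and 8 lower, and without the block limma called 0, with 5 at an unadjusted p under 0.05, against 10.2% of all genes.

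**Figure D5:**
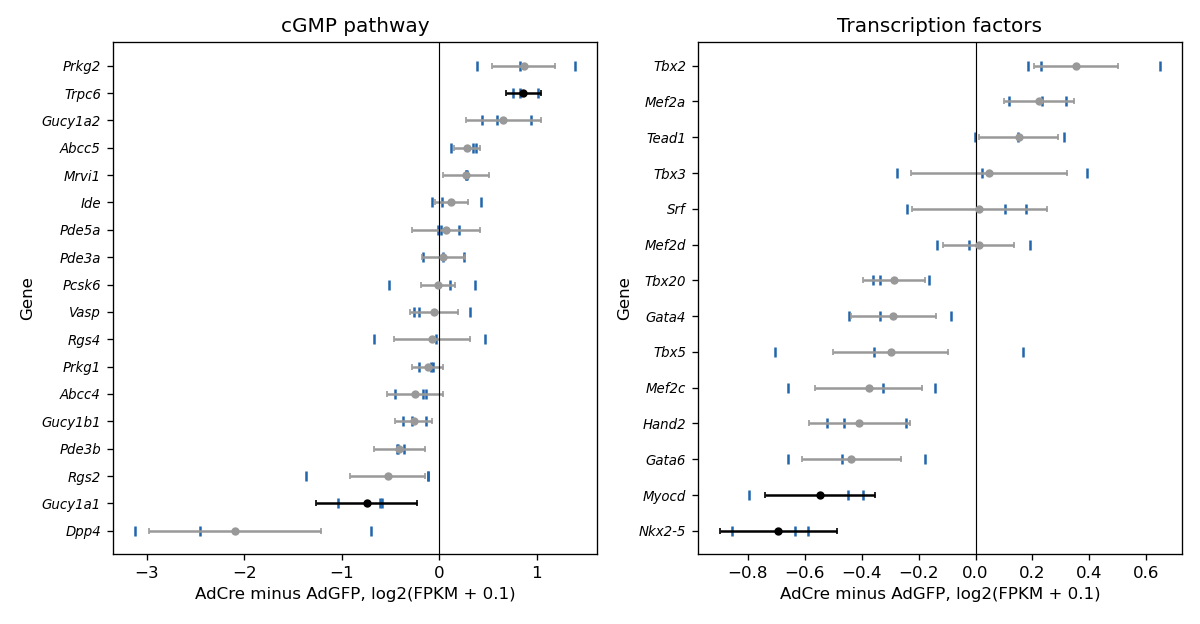
Log2 fold changes of 18 tested cyclic GMP pathway genes (left) and 14 transcription factors (right), as points with standard errors of the fit without a block, with blue ticks for the 3 pairs. Black points mark the genes that passed with the replicate block, Trpc6 and Gucy1a1 on the left and Nkx2-5 and Myocd on the right.

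The promoters of Nppa and Nppb are shown because they are the members that heart muscle transcribes most strongly, and because binding sites for several of these factors can be searched for in them. Searched on both strands, in windows from 250 bases before to 50 after the RefSeq start (GRCm38.p6), were GATAA (GATA factors), AAGTG (NKX2-5), CATTCC (TEAD factors), AGGTGT (T-box factors), TGANTCA (AP-1) and the CArG box (serum response factor). Capitals mark the matches on either strand. The first window covers the 250 bases before the Nppa start at chr4:148000472-148000721 (plus strand), and the second the 30 bases around the matches of Nppb at chr4:147985793-147985822 (plus strand).
Nppa: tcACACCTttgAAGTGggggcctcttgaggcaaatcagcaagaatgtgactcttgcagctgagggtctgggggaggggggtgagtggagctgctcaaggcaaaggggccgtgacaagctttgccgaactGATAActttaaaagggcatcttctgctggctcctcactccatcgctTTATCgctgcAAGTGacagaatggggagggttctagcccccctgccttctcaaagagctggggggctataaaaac
Nppb: caGGAATGcagctGATAAatcagaGATAAc
Nppa held 2 matches to GATAA, 121 and 75 bases before the start, 2 to AAGTG (239 and 65 bases before) and 1 to AGGTGT. Nppb held 2 matches to GATAA, 94 and 83 bases before the RefSeq start, and 1 to CATTCC (105 bases before). GENCODE places the Nppb start at 147985788, an offset of -112 bases from the RefSeq start, so in that annotation the matches of Nppb fall within the first exon. Among the 8 members, GATAA occurred for these 2 alone, beside 25.4% of 32851 promoter windows of all genes. AAGTG occurred in 46.4% of all windows and, among the members, for Nppa and Furin. CATTCC occurred in 14.7% and AGGTGT in 13.7% of windows, the latter also for Npr2. TGANTCA (7.81%) and the CArG box (1.63%) were not matched in the windows of any member. No match was found for Nppc, Npr1, Npr3 or Corin. A match describes the letters in a window and not a bound site.

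The genes most like Nppa and Nppb over the 6 samples were taken by Pearson correlation of log2 values among 12428 protein-coding genes. For Nppa they were Zfp787 (r = 0.997), Slc20a2 (0.996) and Tmem192 (0.995), and for Nppb Proser2 (0.996), Rnft1 (0.995) and Polr3g (0.991). Zfp787 ran from 2.88 FPKM in AdCre replicate 3 to 4.08 in AdGFP replicate 1, the same samples in which Nppa was lowest and highest. Proser2, like Nppb, was second highest in AdCre replicate 2, at 1.63 FPKM. With 6 samples and this many genes, values this high describe a shared order of samples that share library and depth.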

How the data were processed

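RNA-seq values were the FPKM that the authors deposited, in 1 column for each of 6 samples (3 AdGFP, 3 AdCre) and without pooling. The submitters' processing notes name fastp, STAR 2.5, HTSeq 0.6.1 and mm10; annotation and strand are not given in the sources used here. Of 54532 gene IDs, 54495 were in GENCODE M21 (GRCm38), the source of symbols, positions and exon lengths. FPKM times exon length gave whole reads (within 0.01) for 97.1 to 97.3% of genes under 1000 reads in each sample, and totals of 25.3 to 32.4 M reads; the denominators behind the FPKM were 0.931 to 1.03 times these totals. Precision for genes with few reads is limited by these counts.

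Values were fitted as log2(FPKM + 0.1), for genes averaging 0.5 FPKM or more, in limma 3.58.1 (R 4.3.3; lmFit, eBayes with trend) with a term for group, with Benjamini-Hochberg adjustment over all 13794 genes and a threshold of 0.05. Fold changes on this scale understate those of low genes. The fit was tested on simulated data. Single values were compared by exact two-sided permutation tests, which cannot give less than 0.1 here. Labels call the samples biological replicates without naming cultures, so p-values measure the spread between these samples.

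Replicate numbers 1 to 3 recur in both groups. Deviations from group means correlated at 0.568, 0.268 and 0.506 between same-numbered samples and at -0.497 to 0.0364 otherwise. Each exceeded 0.1, and what a number marks is not stated, so same-numbered samples were treated as pairs from their values alone, and the fit with the replicate number as a block is given beside each result whose call it changes.

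Members and gene lists were chosen with earlier results of these data known. Named were all members, called genes of the pathway and factor lists (at most 5 a list by smallest p, else the 3 smallest), defining markers, and the 3 genes most like Nppa and Nppb. The ratios to markers of members other than Nppa and Nppb, and of Npr2 to Npr1, were added to the planned tests. Sln, Myl4, Nr2f2, Plvap, Cdh11, Dcn, Lum, Col3a1 and Postn were named after their values were seen. Set tests were not used. Figures were drawn with matplotlib 3.10.9 in Python 3.11.15 (numpy 2.4.6, pandas 2.3.3). Alternatives were other pseudocounts, filters and scalings, protein-coding genes, no trend, voom on recovered reads, the block, and leaving out samples.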

Additional observations from a re-analysis of the deposited data

How the results depend on the processing

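Without the block, no tested member passed under any of the 18 settings of the fit (17 for Npr1, which falls below a mean of 1 FPKM), and no member changed direction under any setting with or without the block. The number of genes called was 1, and it was 3 with a pseudocount of 1, 4 without a trend, 0 without a filter, 0 with voom and 848 with the replicate block (484 lower). Rescaling to TPM with the block gave 875 (337 lower), voom 1741 (739 lower), and scaling by recovered reads 874 (395 lower). Leaving out single samples gave 0 to 2 genes. Of the 18 tested genes of the cyclic GMP pathway, 0 were called without the block and 2 with the replicate block. Their median of -0.03 became 0.0583 after rescaling to TPM, which moved the median of all genes from -0.0022 to 0.0866, and -0.0738 to 0.0771 when single samples were left out. The difference of Nppa relative to cardiomyocyte markers was -0.0573 to 0.565 without single samples, changing sign without AdCre replicate 1.

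Settings combined with the block were chosen after seeing the data. Nppa and Corin passed in 8 of 15 blocked settings each. Nppa was at -0.61 with the replicate block, with a pseudocount of 1 or 0.01, with a mean of at least 1 FPKM or with protein-coding genes, at -0.60 with median centring, at -0.55 with voom and at -0.68 without pair 1. In blocked settings where its call was lost it was at -0.61 (no filter, no trend), -0.52 (TPM), -0.55 (recovered reads), -0.25 (quantile), -0.52 (without pair 2) and -0.62 (without pair 3). Corin was at -0.70 with the replicate block, with a mean of at least 1 FPKM or with protein-coding genes, at -0.60 and -0.71 with pseudocounts of 1 and 0.01, at -0.68 with median centring, at -0.63 with voom and at -0.64 per total of recovered reads. Where its call was lost it was at -0.70 (no filter, no trend), -0.62 (TPM), -0.68 (quantile) and -0.63, -0.88 and -0.58 (without pair 1, 2 or 3). Npr3 passed with voom (-0.97). Of the pathway and factor genes, Trpc6, Gucy1a1 and Nkx2-5 passed in 11 of 15 blocked settings and Myocd in 8. As fitted, the block changed the call of no other tested member. The blocked fit called 17 genes without a filter, 0 without a trend, 1 without pair 3, 149 without pair 2 and 772 without pair 1, and the cause was not tested. Depth limits Nppc and Npr1.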
